A study of Capra hircus with 2 samples.

Results

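The known miRNAs named miR-203, miR-205 and miR-375 were examined in the endometrium of dairy goats in the receptive and the pre-receptive phase. They were taken by number from the names of the known miRNAs, with any species prefix and any note on the arm or the ends, and a name listed more than once was to be counted once. The rule found 5 of the 587 known names, of which 3 were miR-203 names, 1 was a miR-205 name and 1 was a miR-375 name. No miR-205 name of the 5p arm was among them. The endometrium came from 24-month-old multiparous Xinong Saanen goats whose estrus had been synchronized and which had mated naturally. It was taken on day 15 of pregnancy from 10 goats in the receptive phase (R) and on day 5 from 10 goats in the pre-receptive phase (P). For each phase the RNA of 9 of these goats went into 3 mixed samples, and 1 small RNA library was made and sequenced 3 times. The reads listed for the known names summed to 1904242 (R) and 4046632 (P). In these sums a sequence listed under more than 1 name enters under each name. There was no replicate of either phase, so every test below sets 1 library against another and says nothing of the spread between goats. For the same reason each interval covers the counting error of reads only. Reads that carry no molecular identifier cannot be taken as separate molecules, so the intervals may be too narrow and the P values too small.

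These miRNAs are known from epithelia. miR-203 is a miRNA of stratified epithelium that restrains the transcription factor p63 as keratinocytes leave the cell cycle. miR-205 is made in the basal cells of many epithelia and represses ZEB1 and ZEB2, a pair of repressors of E-cadherin, and miR-375 is abundant in pancreatic islets and in several glandular epithelia, where YAP1 is among its targets. In bulk endometrium a change in the number of epithelial cells and a change in the RNA of each cell cannot be told apart.

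The sequences are shown because they separate the 3 miR-203 names, which are not copies of each other. Each is written from the 5′ end in DNA letters, with the seed (bases 2 to 8) in capitals, and the last line gives the miRBase reference of the leading miR-203 name.
ptr-miR-203_L-1R+1: tGAAATGTttaggaccactagt
ggo-miR-203b: tTGAACTGttaagaaccactgg
mmu-miR-203-5p_1ss11GA: aGTGGTTCttaacagttcaaca
hsa-miR-205-3p_R+1_1ss19TC: gATTTCAGtggagtgaagctca
cfa-miR-375: tTTGTTCGttcggctcgcgtga
ptr-miR-203 (reference): gTGAAATGtttaggaccactag
All 5 listed sequences were 22 nt long, and no seed was shared between them. The sequence of ptr-miR-203_L-1R+1 began 1 base later than its reference and ended 1 base later, so its seed differed from that of the reference. No other known or candidate name carried either seed of miR-203, or the seed of ggo-miR-203b, cfa-miR-375 or hsa-miR-205-3p_R+1_1ss19TC. The seed of mmu-miR-203-5p_1ss11GA was found in 1 other name, hsa-miR-182-3p_L+2R-1.

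ggo-miR-203b was complementary to the 5p name and also resembled the leading miR-203 sequence. Its bases 1 to 20 were complementary to mmu-miR-203-5p_1ss11GA without a break. Its longest unbroken stretch in common with ptr-miR-203_L-1R+1 was 6 bases, a measure that passes over likeness with scattered differences. Set base by base against the reference ptr-miR-203, ggo-miR-203b had the same base at most positions. In the human genome the miR-203a and miR-203b hairpins are known to lie on opposite strands of the same locus. The 5p name carried the substitution G11A against the mouse reference, counted from the 5′ end of the reference, and with the mouse base only 19 of the 20 positions were complementary. The miR-205 name carried T19C against the human reference and 1 more base at its 3′ end. The sequences of ggo-miR-203b and cfa-miR-375 equalled their references. A stretch of 10 or more bases of cfa-miR-375 was found in 7 other names, the most abundant of which was bta-miR-2284x_R+1. Its NE was 1133 in R against 1911 in P, and the log2 ratio was -0.75 (95% exact interval -0.86 to -0.65), opposite in sign to the ratio of cfa-miR-375 given below. With the clean reads or the listed reads as the total, which add 0.78 and 1.52 to every log2 ratio, it was above 0.

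The 5 names differed widely in expression. Normalized expression (NE) follows the reads divided by a size factor of the library. For these names, each listed a single time, 1 read was worth 0.860 NE in the R library, against 1.16 NE in the P library. The most abundant name was ptr-miR-203_L-1R+1, with 2206 reads in R against 198 in P, equal to 1897 NE (95% exact interval 1819 to 1978) and 230 NE (199 to 265). cfa-miR-375 had 1026 reads in R against 77 in P, equal to 882 NE (829 to 938) and 89.5 NE (70.7 to 112). ggo-miR-203b had 74 and 18 reads, or 63.6 NE (50.0 to 79.9) in R and 20.9 NE (12.4 to 33.1) in P. For each of these 3 names the interval in R lay wholly above the interval in P. They also kept one order in both libraries, with intervals that did not overlap between neighbours of that order. Among the known names ordered by NE, ptr-miR-203_L-1R+1 stood at position 59 in R and 125 in P, cfa-miR-375 at 80 and 159, and ggo-miR-203b at 189 and 245.

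The other 2 names were at or near the limit of detection. mmu-miR-203-5p_1ss11GA had 5 reads in R (4.30 NE) against 0 in P. Such a count was taken to allow up to 3 reads or 3.49 NE, and its 95% exact interval ends at 4.29 NE, next to the value in R. hsa-miR-205-3p_R+1_1ss19TC had 3 reads in R (2.58 NE) and 1 read in P (1.16 NE). Their intervals overlapped within each library, so that no order between them could be given. In R the 5p name of miR-203 therefore had 5 reads beside the 2206 reads of the leading name.

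**Figure D1:**
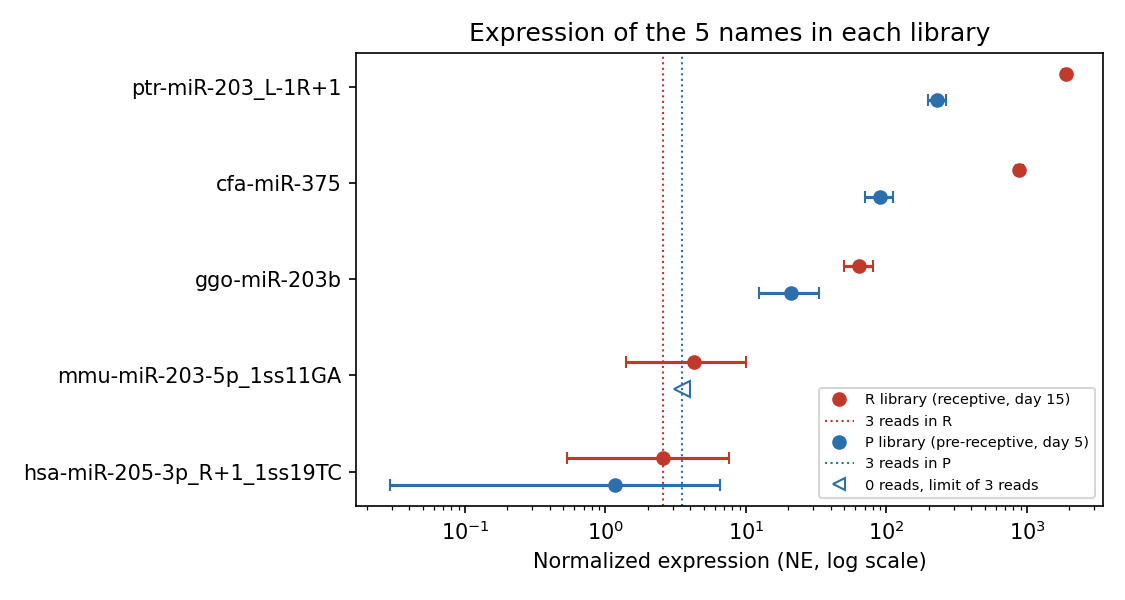
Normalized expression (NE, log axis) of the 5 names in the R library (red) and the P library (blue), with 95% exact intervals of the reads as bars. The dotted lines mark 3 reads in each library, and the open triangle marks 0 reads at that limit. The points of ptr-miR-203_L-1R+1, cfa-miR-375 and ggo-miR-203b lie higher in R than in P, and the intervals of the other 2 names reach the lines.

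The leading names of miR-203 and miR-375 were both higher in the receptive library, by 8.24-fold (95% exact interval 7.12 to 9.58) for ptr-miR-203_L-1R+1 and by 9.85-fold (7.81 to 12.6) for cfa-miR-375. ggo-miR-203b was 3.04-fold higher (1.80 to 5.41). A name was tested when its NE was above 0 in both libraries and at least 1 in 1 of them. It was called at P under 0.05 in Fisher's exact test (two-sided, reads against the remaining clean reads) with more than a 2-fold ratio of NE. The P thus follows the clean reads and the ratio follows NE, and these scales differ by 0.78 in log2 ratio. Of the 5 names 4 were tested, and 3 of these were called higher in R, beside 18.3% of all 564 names tested. The share over all names was 31.9% with the clean reads as the total and 41.3% with the listed reads. None of the 4 was called lower, beside 7.09% of the names tested. Fisher's exact test gave P = 1.86e-541 for ptr-miR-203_L-1R+1, P = 1.23e-265 for cfa-miR-375 and P = 1.65e-12 for ggo-miR-203b.

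On the log2 scale the ratios were 3.04 (95% exact interval 2.83 to 3.26) for ptr-miR-203_L-1R+1, 3.30 (2.97 to 3.65) for cfa-miR-375 and 1.60 (0.85 to 2.44) for ggo-miR-203b. The median over the names tested was -0.07, and 269 of the 564 had a higher NE in R. When the interval itself had to lie wholly beyond 2-fold, 2 of the 4 names were called higher, beside 8.69% of the names tested, and ggo-miR-203b was no longer called. Among the 296 names with at least 10 reads in each library, cfa-miR-375 stood at position 6 from the largest log2 ratio down, ptr-miR-203_L-1R+1 at position 7 and ggo-miR-203b at position 32.

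No ratio could be set for the miR-205 name, since both of its counts were at or under 3 reads, and Fisher's exact test gave P = 0.327. No difference of miR-205-3p was therefore detected with these few reads. mmu-miR-203-5p_1ss11GA was not tested, as it was not detected in P. Against the limit of 3 reads in P, its expression in R was higher by at least 1.23-fold, counting error not included. Outside the calling step, Fisher's exact test against the clean reads gave P = 0.0165, which is not on the NE scale. On the NE scale the exact interval of this name reached down to a log2 ratio of -0.56, so that no difference is stated for it.

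**Figure D2:**
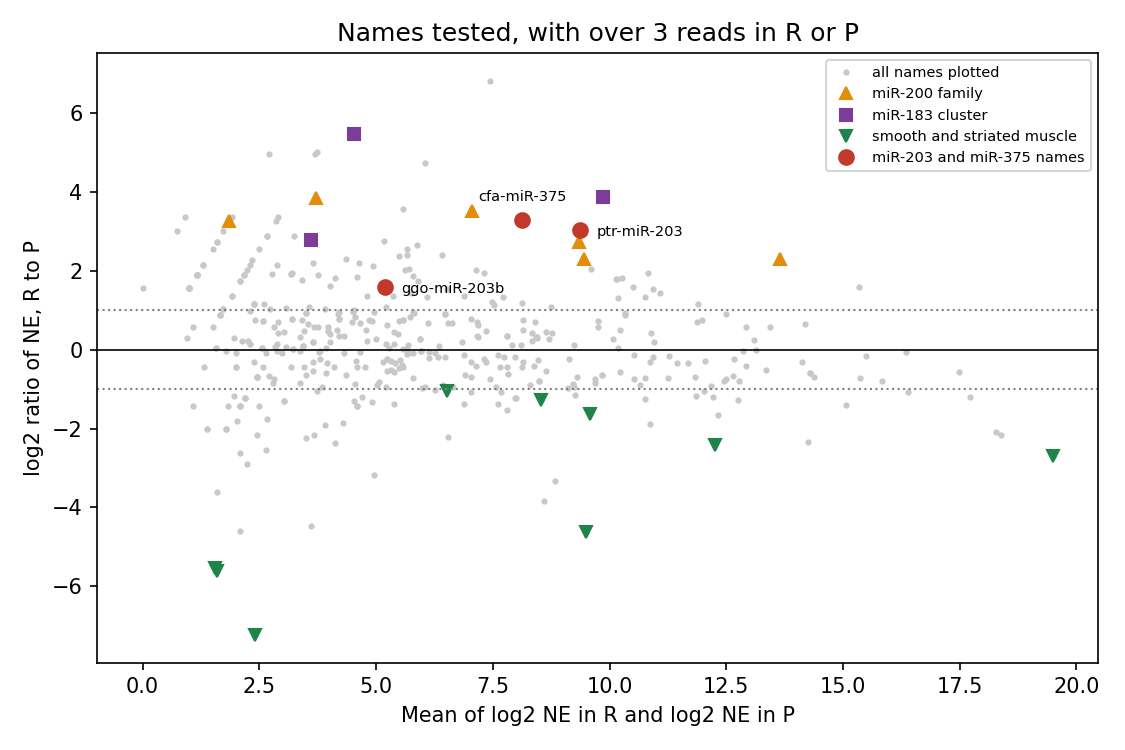
Log2 ratio of NE (R to P) against the mean of log2 NE in both libraries, for the names tested that had over 3 reads in R or P (grey), with the miR-203 and miR-375 names in red and the miR-200 family, the miR-183 cluster and the muscle list in other colours. The dotted lines mark 2-fold. The points of ptr-miR-203 and cfa-miR-375 lie at 3.04 and 3.30 and that of ggo-miR-203b at 1.60, all above the upper dotted line.

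The names differed among themselves in how far they moved, which can be tested without any scaling, since the ratio of 2 names within a library does not depend on its total. There were 29.8 reads of ptr-miR-203_L-1R+1 per read of ggo-miR-203b in R and 11.0 in P. The log2 ratio of the former was greater by 1.44 (95% exact interval 0.58 to 2.23; P = 0.000851, adjusted P = 0.00128 by Benjamini-Hochberg over 3 pairs, Fisher's exact test on the reads of both names). cfa-miR-375 and ggo-miR-203b differed by 1.70 (0.79 to 2.54; adjusted P = 0.000456, same exact test). The reads of ggo-miR-203b thus made a smaller addition to the leading miR-203 name in R, 3.35 per 100 reads, than in P, 9.09 per 100 reads. ptr-miR-203_L-1R+1 and cfa-miR-375 had 2.15 reads to 1 in R and 2.57 to 1 in P. Their log2 ratios differed by -0.26 with an interval of -0.67 to 0.14 (adjusted P = 0.223, same exact test), which leaves room for a difference of either sign.

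The 5 names together held 3314 of the listed reads of known miRNAs in R, or 0.174% (95% exact interval 0.168% to 0.180%), and 294 in P, or 0.00727% (0.00646% to 0.00815%). Most of these reads belonged to ptr-miR-203_L-1R+1, with 0.116% in R and 0.00489% in P. cfa-miR-375 held 0.0539% and 0.00190%. These shares depend on what else was listed, and a single muscle name described below held a large part of the listed reads in P. The totals also count a sequence under each of its names, so that they exceed the reads of distinct sequences.

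The families most like these miRNAs by cell type are the miR-200 family, which represses ZEB1 and ZEB2 in epithelia, and the miR-183 cluster, known from sensory and other epithelia. Of the 7 names of the miR-200 family, among them end variants of miR-141-3p, all 7 were tested and 6 were called higher in R. The median log2 ratio of the 7 was 2.73. Without the name at or under 3 reads in both libraries and with counts under the limit set to 3 reads, this median was 2.51. On the same terms the median was 0.07 over all names tested, -2.69 for the muscle list, -0.68 for the erythroid list and 2.02 for the rRNA or tRNA entries, which are described below, and the medians of the other lists were equal to those printed. Of the 5 names of the miR-183 cluster, 3 were tested and all 3 were called higher, with a median of 3.86, and the other 2 were at 0 in P. The summed NE was 32080 in R and 6406 in P for the miR-200 family, and 3707 and 250 for the miR-183 cluster. Both lists were higher in R under each scaling of the libraries that was tried. This outcome was fixed in advance, since each of these scalings raised every log2 ratio.

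The most abundant miR-200 name, hsa-miR-141-3p_R-1, had 32955 reads in R against 4980 in P, and its log2 ratio was 2.29 (95% exact interval 2.25 to 2.33). The ratio of ptr-miR-203_L-1R+1 exceeded it by 0.75 (0.54 to 0.97; adjusted P = 1.51e-12, Fisher's exact test, 6 pairs), and that of cfa-miR-375 exceeded it by 1.01 (0.67 to 1.37; adjusted P = 4.50e-10, same exact test). For ggo-miR-203b the difference was -0.69 (-1.45 to 0.15; adjusted P = 0.0867, same exact test). The most abundant name of the miR-183 cluster, bta-miR-182, had 4092 reads in R against 208 in P, and its log2 ratio was 3.86 (3.66 to 4.07). The ratio of ptr-miR-203_L-1R+1 was below it (difference of log2 ratios -0.82, -1.12 to -0.52; adjusted P = 8.73e-08, same exact test). Those of cfa-miR-375 (difference -0.56, -0.96 to -0.15; adjusted P = 0.00769, same exact test) and ggo-miR-203b (-2.26, -3.05 to -1.40; adjusted P = 9.53e-07, same exact test) were below it as well. These differences hold for the 2 names tested and not for whole lists. In the miR-200 family, hsa-miR-200a-5p (524 and 34 reads, log2 ratio 3.51) and oan-miR-429-3p_R+2 (58 and 3 reads, 3.84) lay above the ratios of ptr-miR-203_L-1R+1 and cfa-miR-375. In the miR-183 cluster, bta-miR-96 (37 and 4 reads, 2.77) lay below them, and these positions were not tested.

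Names known from other cells of the tissue moved too, and their part in the result was not tested. All 10 names of smooth and striated muscle were tested and 8 were called lower in R, with a median log2 ratio of -2.55 and a summed NE of 292640 in R and 1883319 in P. The most abundant was aja-miR-143_1ss22GT, with 336831 reads in R and 1604780 in P. With the listed reads as the total, 7 of the 10 were lower in R and 3 were higher. The ciliated epithelium list, made of miR-34b, miR-34c and miR-449 names, had 8 names, of which 5 were tested, 3 were called higher and 3 were at 0 in P. Its median log2 ratio was 1.35, its summed NE was 4872 in R and 1234 in P, and hsa-miR-34c-5p was its most abundant name (log2 ratio 1.35). Its tested names ranged from 0.68 for hsa-miR-34c-5p_2ss11GA23CT to 6.82 for hsa-miR-449a, which had 2143 reads in R against 14 in P.

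None of the 7 fibroblast names was called, with a median log2 ratio of -0.05 and a summed NE of 97321 in R and 97155 in P, and the most abundant was oar-miR-199a-3p (log2 ratio -0.05). None of the 4 miR-126 names of endothelium was called (median 0.52, summed NE 32841 and 21287, most abundant hsa-miR-126-5p at 0.64). Of the 5 leukocyte names 3 were tested and 2 were called higher, with a median of 1.17, a summed NE of 7463 and 4920 and 2 names at 0 in P. Both called names were miR-142 names, and the most abundant was cgr-miR-142-5p_L-2R+1 (1.17). The third tested name, hsa-miR-155-5p, had 1568 reads in R against 1901 in P and a log2 ratio of -0.71, which was above 0 with the clean reads or the listed reads as the total. The 6 erythroid names held 4 sequences, since 2 miR-144 sequences were each listed under 2 names with equal values. They enter the counts, the median and the summed NE under both names. None of the 6 was called (median -0.16, summed NE 6107 and 9425, most abundant cgr-miR-486-5p at -0.68). With reads scaled to the clean reads, the medians of the fibroblast and the erythroid names were above 0. On that scale 2 fibroblast, 3 endothelium and 2 erythroid names were called higher. Entries that match rRNA or tRNA, a sign of RNA fragments in a library, were 12 in number, and 11 were called higher in R, with a median of 1.98 and a summed NE of 8410 in R and 2193 in P. The most abundant of them was hsa-mir-7641-2-p3_1ss22TC (1.94). Over all 564 names tested, 103 were called higher and 40 lower.

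**Figure D3:**
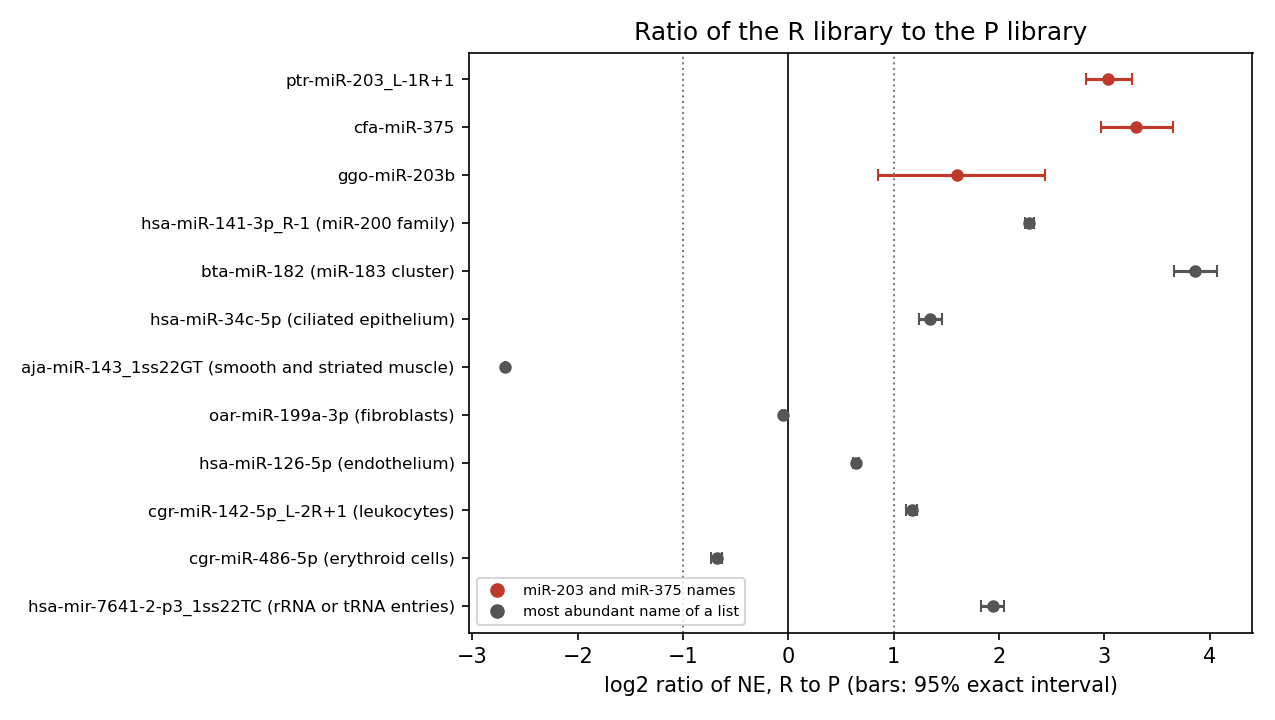
Log2 ratio of NE (R to P) with 95% exact intervals for the 3 miR-203 and miR-375 names above 3 reads in both libraries (red) and for the most abundant name of each list (grey, list in brackets). The dotted lines mark 2-fold, and intervals narrower than a point are hidden by it. The ratios of ptr-miR-203_L-1R+1 (3.04) and cfa-miR-375 (3.30) lie between those of hsa-miR-141-3p_R-1 (2.29) and bta-miR-182 (3.86).

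Names with the nearest ratio were sought among 148 other known names with at least 100 reads in each library, with the absolute difference of log2 ratios over the 2 libraries as the measure. The 3 nearest to ptr-miR-203_L-1R+1 were hsa-miR-141-3p_R+1 (log2 ratio 2.73, difference 0.31), cgr-miR-200c (2.30, difference 0.74) and hsa-miR-141-3p_R-1 (2.29, difference 0.75). All are of the miR-200 family, and the hsa-miR-141-3p names are 3′ end variants of the same mature sequence. The 3 nearest to cfa-miR-375 were bta-miR-182 (difference 0.56), hsa-miR-141-3p_R+1 (difference 0.57) and cgr-miR-200c (difference 1.00). The names nearest to ggo-miR-203b were others. They were hsa-miR-34a-5p (log2 ratio 1.60, 2933 reads in R and 714 in P), oar-miR-22-3p_R+1 (1.60, 84018 and 20485 reads) and bta-miR-31_R+2 (1.44, 4125 and 1123 reads), and the first and the second differed from it by 0.00 on the log2 scale. The limit of 100 reads left out names with few reads in P, although cfa-miR-375 and ggo-miR-203b had fewer than this themselves. With a limit of 10 reads, chosen after seeing the data, 275 names were compared. The nearest to cfa-miR-375 was then hsa-miR-200a-5p (difference 0.21), followed by hsa-miR-132-5p (0.55) and bta-miR-182 (0.56). The nearest to ptr-miR-203_L-1R+1 were hsa-miR-132-5p (0.29), hsa-miR-141-3p_R+1 (0.31) and hsa-miR-4792_L+1R+1_1ss10GT (0.39), of which 1 was of the miR-200 family and the last was of the list of entries that match rRNA or tRNA. For ggo-miR-203b, bta-miR-210_L-1R+1 (0.06) took the place of bta-miR-31_R+2.

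The size of the ratios depended on how the libraries were scaled. Every scaling tried raised all log2 ratios, so that a ratio above 0 could not change its direction. Scaling to the clean reads is the formula given for NE in the methods of the study, from which the deposited values depart. With the clean reads as the total, 0.78 was added to every log2 ratio and the median of the names tested became 0.71. The log2 ratios were then 3.83 for ptr-miR-203_L-1R+1, 4.08 for cfa-miR-375 and 2.39 for ggo-miR-203b. With the listed reads as the total they were 4.56, 4.82 and 3.12, beside a median of 1.45. The distance of each name from the median is the same under all of these scalings.

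**Figure D4:**
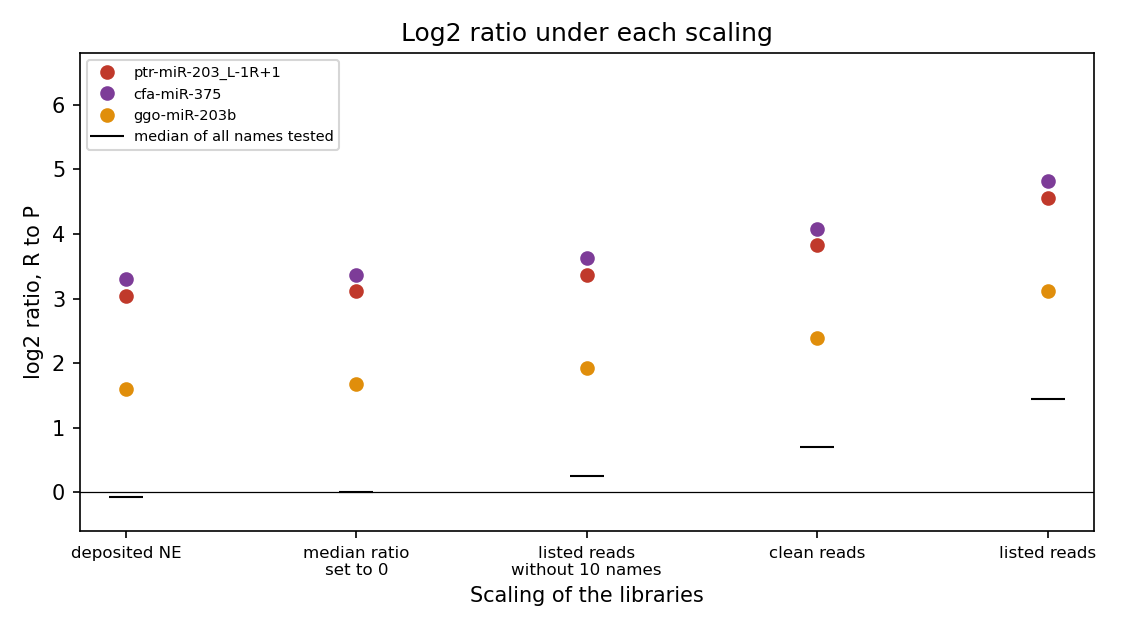
Log2 ratio (R to P) of ptr-miR-203_L-1R+1, cfa-miR-375 and ggo-miR-203b, and the median of all names tested (black lines), under 5 scalings of the libraries. All points shift together, from a median of -0.07 with the deposited NE to 1.45 with the listed reads, and the 3 names lie above the median in each.

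Predicted targets were listed for 3 of the 5 names, and none for mmu-miR-203-5p_1ss11GA and hsa-miR-205-3p_R+1_1ss19TC. The study predicted targets for its differentially expressed miRNAs, which did not include the latter names. A missing list is therefore not a prediction without targets. The target table is a prediction by the authors from sequence and holds no measurement. It gave 789 gene identifiers for ptr-miR-203_L-1R+1, 890 for ggo-miR-203b and 220 for cfa-miR-375, while the median over all 142 names in the table was 578.5, with a range of 81 to 1331. By the number of identifiers ggo-miR-203b stood at position 31, ptr-miR-203_L-1R+1 at 39 and cfa-miR-375 at 134. The less abundant miR-203 name thus had the longer list. The 3 lists together held 1624 of the 7608 identifiers (21.3%), of which 1370 were in 1 list, 233 in 2 lists and 21 in all 3.

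The lists of the 2 miR-203 names shared 177 identifiers, or 22.4% of the list of ptr-miR-203_L-1R+1 and 19.9% of that of ggo-miR-203b. Against the 139 lists of other names, the median share of identifiers in common was 14.7% for ptr-miR-203_L-1R+1 (range 0.887% to 32.4%) and 13.3% for ggo-miR-203b (0.674% to 28.2%). cfa-miR-375 shared 57 identifiers with ptr-miR-203_L-1R+1 (25.9% of its own list and 7.22% of the other) and 62 with ggo-miR-203b (28.2% and 6.97%). With the other names it shared a median of 15.5% of its list (range 1.36% to 40.9%). The overlaps between members thus lay within the ranges of the other names. The 6 miR-200 names of the table held 2247 identifiers together, or 29.5% of all identifiers, and ptr-miR-203_L-1R+1 shared 370 of them (46.9% of its list and 16.5% of theirs). ggo-miR-203b shared 432 (48.5% and 19.2%) and cfa-miR-375 shared 108 (49.1% and 4.81%). The 3 names of the miR-183 cluster held 1551 identifiers, or 20.4% of all. Those shared with them were 269 for ptr-miR-203_L-1R+1 (34.1% of its list and 17.3% of theirs), 302 for ggo-miR-203b (33.9% and 19.5%) and 87 for cfa-miR-375 (39.5% and 5.61%). The median number of names per identifier was 19 for ptr-miR-203_L-1R+1, 22 for cfa-miR-375 and 18 for ggo-miR-203b. It was 19 over the other lists, against 8 in the whole table. Shares above the percent of all identifiers are therefore no sign of a particular overlap, which was not tested.

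The identifiers listed for no other name were 3 of 789 for ptr-miR-203_L-1R+1 (0.380%), 17 of 890 for ggo-miR-203b (1.91%) and 1 of 220 for cfa-miR-375 (0.455%). Over the 139 lists of other names this share had a median of 0.671% and a range of 0% to 2.94%, so that the 3 names lay within the range of the table. The identifiers are not paired with gene symbols in the table, so that no target is named here.

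**Figure D5:**
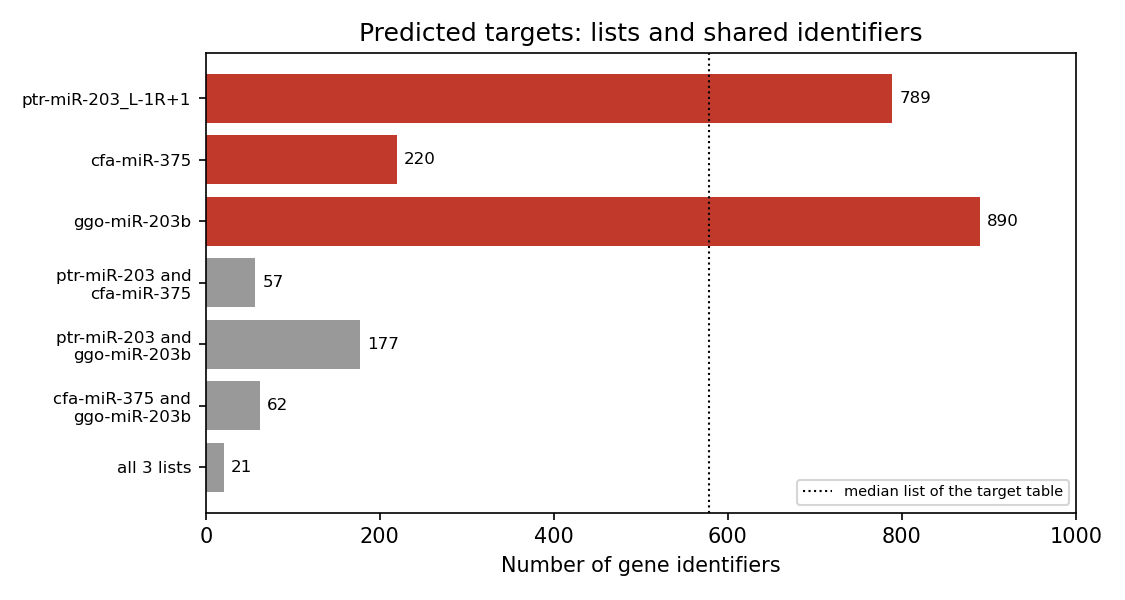
Number of gene identifiers predicted as targets of ptr-miR-203_L-1R+1, cfa-miR-375 and ggo-miR-203b (red bars) and number shared between their lists (grey bars). The dotted line marks the median list of the target table, 578.5 identifiers, and cfa-miR-375 with 220 lies below it.

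In the table of conservation, precursors of miR-203 were listed for 9 of 23 species, those of miR-205 for 14 and those of miR-375 for 6. All 3 were listed for Human, Rat and Gray Short-tailed Opossum. miR-203b was listed for Human, Rat and Gorilla.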

How the data were processed

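Small RNA of goat endometrium was measured in 1 R library and 1 P library. The authors filtered the reads by length (18 to 26 nt) and against other classes of RNA, and assigned them through miRBase 20.0 and the goat genome. They deposited for each miRNA a normalized signal (NE). The methods of the study define NE by the share of a miRNA in the clean reads, which the deposited values do not follow. They were used as deposited, and that formula was tried as an alternative. Divided by the worth of 1 read, 86.5% of the known names in R and 89.3% in P gave whole reads within 0.01, as did all 5 members. For the 54 known names listed more than once, NE was taken once and reads were summed over the entries, so that their NE per read is lower. The authors also deposited other tables, of species names and of gene identifiers for predicted targets. Their fold, log2, ratio and P-value columns were not used. In the candidate table the labels of both libraries were exchanged. Read this way, 70 of 70 names shared with the differential table had equal values within 0.01 NE, and 0 under its own labels.

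Fisher's exact test used rounded reads and the clean reads of the study (4233874 in R and 5386427 in P), over known and candidate names together. Intervals are exact at 95% (Clopper-Pearson for ratios and shares, Poisson for levels, conditional for differences of ratios). For the fold of a member, a library with at most 3 reads was set to 3 reads. Medians over lists and over all names tested were taken without this limit, except where it is named. The members, the 9 cell type lists and the tests were chosen with earlier results of these data known. Named besides the members were the most abundant name of each list and, for members with at least 10 reads in each library, the 3 names nearest in ratio. hsa-miR-155-5p, hsa-miR-200a-5p, oan-miR-429-3p_R+2, bta-miR-96, hsa-miR-34c-5p_2ss11GA23CT, hsa-miR-449a, bta-miR-2284x_R+1, hsa-miR-182-3p_L+2R-1 and the names added with a limit of 10 reads were chosen after their values or sequences were seen. Before use, the calling step was tested on simulated data. There the test and the ratio shared the same scale, so that the difference of scales in the real calls was not covered. Other scalings, filters, tests and pseudocounts were tried. The work was done in Python 3.11.15 with scipy 1.17.1 for the tests, pandas 2.3.3 and numpy 2.4.6 for the tables and matplotlib 3.10.9 for the plots.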

Additional observations from a re-analysis of the deposited data

How the results depend on the processing

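The direction of ptr-miR-203_L-1R+1, cfa-miR-375 and ggo-miR-203b was higher in R under all 6 alternatives tried for the log2 ratio. None of these could reverse it, since each scaling raised every log2 ratio and a pseudocount cannot change its sign. Scaled to the clean reads the log2 ratios of ptr-miR-203_L-1R+1 and cfa-miR-375 were 3.83 and 4.08, beyond their counting intervals. Scaled to the listed reads they were 4.56 and 4.82, and that of ggo-miR-203b was 3.12. With the 10 most abundant names left out of the listed reads, ptr-miR-203_L-1R+1 had 3.37. A pseudocount of 10 NE lowered ggo-miR-203b to 1.25. The number of members called higher was 3 under 11 of 12 alternatives and 2 when the exact interval had to lie wholly beyond 2-fold.

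Over all names tested, the number called higher was 103 as reported and 180 with the clean reads (22 lower, 89.1% higher), 233 with the listed reads (12 lower, 95.1%), 53 with at least 10 reads in each library and 49 by the interval beyond 2-fold. Without the 10 most abundant names 83.1% of calls were higher, against 72.0% as reported (103 higher, 40 lower). With an exact binomial test set to NE, on the same scale as the ratio, 59.9% were higher (82 higher, 55 lower).

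Scaled to the clean reads, the median log2 ratio was 3.51 for the miR-200 family, 4.65 for the miR-183 cluster, 2.13 for ciliated epithelium, -1.77 for muscle, 1.31 for endothelium, 1.96 for leukocytes and 2.76 for the rRNA or tRNA entries. The medians of fibroblasts (0.73) and erythroid cells (0.62) changed sign, because this scaling adds 0.78 to each. The names called higher were then 5 of ciliated epithelium, 2 of fibroblasts, 3 of endothelium and 2 of erythroid cells, the latter being 1 miR-144 sequence under 2 names. The muscle names called lower were then 6 in place of 8.

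The differences between members kept their side of the threshold when all 6 pairs with at least 1 read in each library were adjusted together. With a limit of 10 in place of 100 reads, chosen after seeing the data, 1 of the 3 names nearest in ratio was shared for ptr-miR-203_L-1R+1, 1 for cfa-miR-375 and 2 for ggo-miR-203b. The overlap of targets by transcript identifier was not run, since the transcript column is not paired with its miRNAs. No paired analysis was possible because each phase had 1 library, so that there was no replicate to leave out. Depth limits the miR-205 name and the 5p name of miR-203, which had at most 5 reads in either library.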
